A study of Mus musculus with 12 samples.

Results

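Type II alveolar epithelial (AT2) cells were examined here for the genes of the circadian clock that belong to, or answer to, the PAS network of transcription factors. The set was given by symbol, by a rule that uses no measured value, and holds 10 of the 55450 genes of the table: *Arntl*, *Clock*, *Per1*, *Per2*, *Per3*, *Cry1*, *Cry2*, *Nr1d1*, *Nr1d2* and *Dbp*. All 10 had counts in every library and passed the filter on low counts, as did 20612 genes in all. The cells came from AhRfl/fl mice, whose aryl hydrocarbon receptor (AhR) gene is floxed, and from Sftpc-Cre;AhRfl/fl mice, in which Cre made under the *Sftpc* promoter deletes part of that gene. They are called WT and KO cells below, although both carry the floxed alleles and the WT cells lack the Cre transgene. Each kind was kept for 24 h on Collagen I in the presence of PBS (a CRE dose of 0) or of 50 µg/ml cockroach extract (CRE), which makes 4 groups of 3 libraries. The mice were 6 to 8 weeks old, with controls matched for age and sex. Which sex was used and the time of day of the harvest were not given in the sources used here, and each library is a single moment, so that no rhythm can be read from these data. Nothing in the labels says that replicates of a group came from separate mice, so p-values measure the spread between these libraries.

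Total counts were 68878065 to 80935797 per library. The AhR deletion was seen in the receptor's known target genes rather than in *Ahr* itself: *Cyp1b1* lay between 344 and 464 CPM in WT cells and between 31.7 and 63.8 CPM in KO cells, whereas *Ahr* lay between 42.9 and 56.2 CPM in WT cells and between 37.7 and 51.4 CPM in KO cells, a count of the whole gene that does not isolate the deleted part. CPM is the count scaled to a common library size after TMM normalization. All 9 AT2 markers were detected, with a summed level of 4474 to 9087 CPM, and it was lowest in the KO replicate 1 libraries. Markers of other cells were present too: the 3 club cell markers summed to 3975 to 8087 CPM, nearly all of it *Scgb1a1*, the 5 AT1 markers to 540.1 to 1236 CPM, the 6 leukocyte markers to 29.7 to 169 CPM and the 4 fibroblast markers to 58.6 to 208 CPM.

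The clock is a feedback loop of transcription. ARNTL (also called BMAL1) and CLOCK, both proteins with bHLH and PAS domains like AhR, bind E-boxes as a pair and switch on the Per and Cry genes, whose proteins return to inhibit the pair. A further loop runs through the nuclear receptors REV-ERB alpha and beta, made by *Nr1d1* and *Nr1d2*, which repress *Arntl* at RORE sites, and DBP is a bZIP factor that carries the rhythm to output genes through D-boxes. AhR binds the same class of partners, and the lung epithelium is known to keep its own clock.

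Motifs of the kinds through which this loop is known to work were found in the promoters of some members. RefSeq promoter windows of GRCm38.p6, which run from 250 bases before to 50 bases after a start site, were found for 9 of the 10 genes, in 13 windows, and *Per2* had no match. The motifs searched on both strands were the E-box CACGTG, the D-box TTANGTAA, the RORE core TAGGTCA or TGGGTCA, the AhR response element TNGCGTG and the cAMP response element TGACGTCA, where N is any base. The sites below are shown because they are the letters by which the clock factors and AhR are known to read DNA. Each is 30 bases of the gene's own strand, 5′ to 3′, with the motif in capitals (its reverse complement in the AhR elements), and no motif shown overlaps another.
Arntl RORE, chr7:113207530-113207559, plus strand: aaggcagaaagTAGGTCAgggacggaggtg
Per1 E-box, chr11:69098771-69098800, plus strand: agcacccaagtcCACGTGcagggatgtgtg
Cry1 E-box, chr10:85185097-85185126, minus strand: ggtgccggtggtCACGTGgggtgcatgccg
Per3 D-box, first, chr4:151044852-151044881, minus strand: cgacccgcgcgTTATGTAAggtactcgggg
Per3 D-box, second, chr4:151044805-151044834, minus strand: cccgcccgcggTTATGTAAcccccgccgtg
Cry1 AhR element, chr10:85185223-85185252, minus strand: agtccggatccCACGCGAgaactcaggtcg
Nr1d1 AhR element, chr11:98775554-98775583, minus strand: ggctttccaaaCACGCCAccctgactcttc

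The E-box of *Per1* began 166 bases before the start site of one of its annotated transcripts and that of *Cry1* began 60 bases before. The RORE of *Arntl* began 30 bases after the start site of 1 of its 2 windows. An E-box was found in 2 of the 13 member windows and in 7.15% of all 32851 windows. A D-box was in 1 member window and 2.32% of all, a RORE core in 1 and 6.45%, and an AhR response element in 2 and 5.07%. The cAMP response element was in no member window and in 1.79% of all. A match is a stretch of letters and not a measured site of binding, and the absence of a match says nothing about sites outside these windows.

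The levels of the 10 genes spanned more than an order of magnitude. FPKM, the authors' level scaled to gene length and library depth, allows comparison between genes. The REV-ERB gene *Nr1d1* was the highest, at a median of 30.8 FPKM over the 12 libraries (25.2 to 38.1), followed by *Nr1d2* at 15.0 FPKM (13.4 to 18.5) and *Cry1* at 9.93 FPKM (8.998 to 11.9). The ranges of these 3 genes did not overlap each other or any lower gene. *Cry2* at a median of 5.77 FPKM, *Clock* at 5.04 FPKM, *Per2* at 4.70 FPKM and *Per1* at 3.95 FPKM formed a middle tier in which each gene overlapped the next. *Per1*, at 3.24 FPKM or more, lay above *Arntl* in every library. The lowest were *Arntl* at 2.30 FPKM, *Dbp* at 1.62 FPKM and *Per3* at 1.18 FPKM, again with overlap of neighbours. Thus the 2 partners of the activating pair differed in level, *Clock* over *Arntl*, and the repressors *Nr1d1* and *Nr1d2* stood above both.

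**Figure D1:**
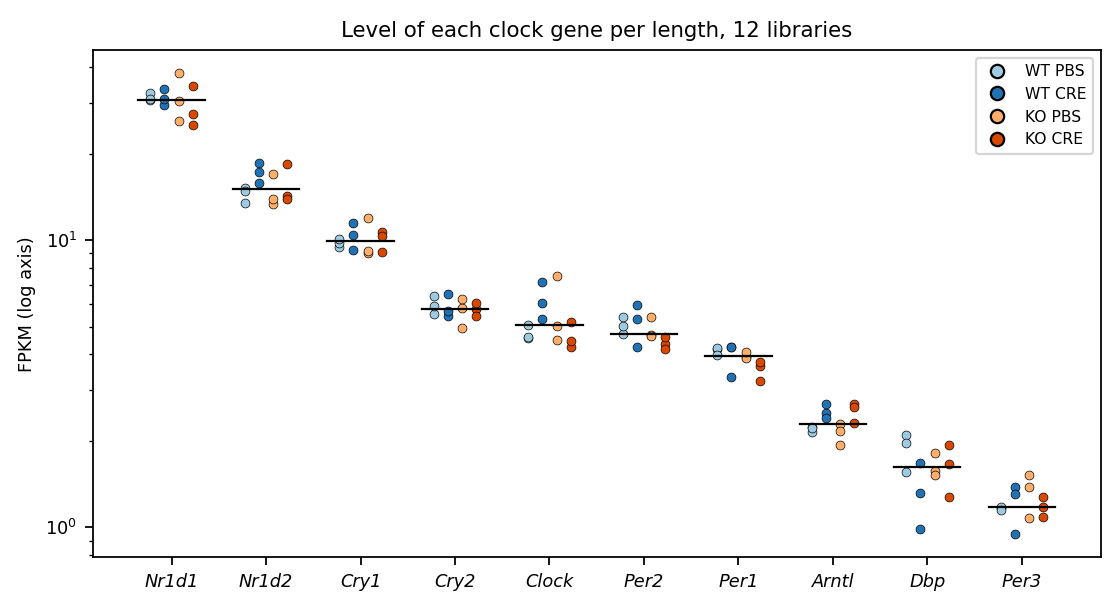
FPKM (log axis) of each clock gene in the 12 libraries, coloured by group, with a line at the median, ordered from the highest median to the lowest. *Nr1d1* (25.2 to 38.1 FPKM), *Nr1d2* and *Cry1* stand clear of the rest, and *Per3* and *Dbp* lie lowest.

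The depth behind these levels was uneven. *Dbp* had 252 to 516 counts in a library and *Per3* 800 to 1321, while *Nr1d1* had 6611 to 9665. Within groups the residual SD of log2 CPM was 0.09 for *Arntl*, which 8.46% of tested genes undercut. It reached 0.26 for *Dbp* and 0.23 for *Clock*, against a median of 0.30 for all genes tested. The filter asked for a minimum count of only 10, and the members were not compared with genes of like count. Whether they vary less than such genes was therefore not tested. *Nr1d1* shares 263 exonic bases with *Thra* and *Dbp* shares 539 with *Sphk2*, both on the opposite strand. The libraries were stranded, but the strand setting of the counting was not given in the sources used here, so a part of these counts could belong to the neighbour.

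**Figure D2:**
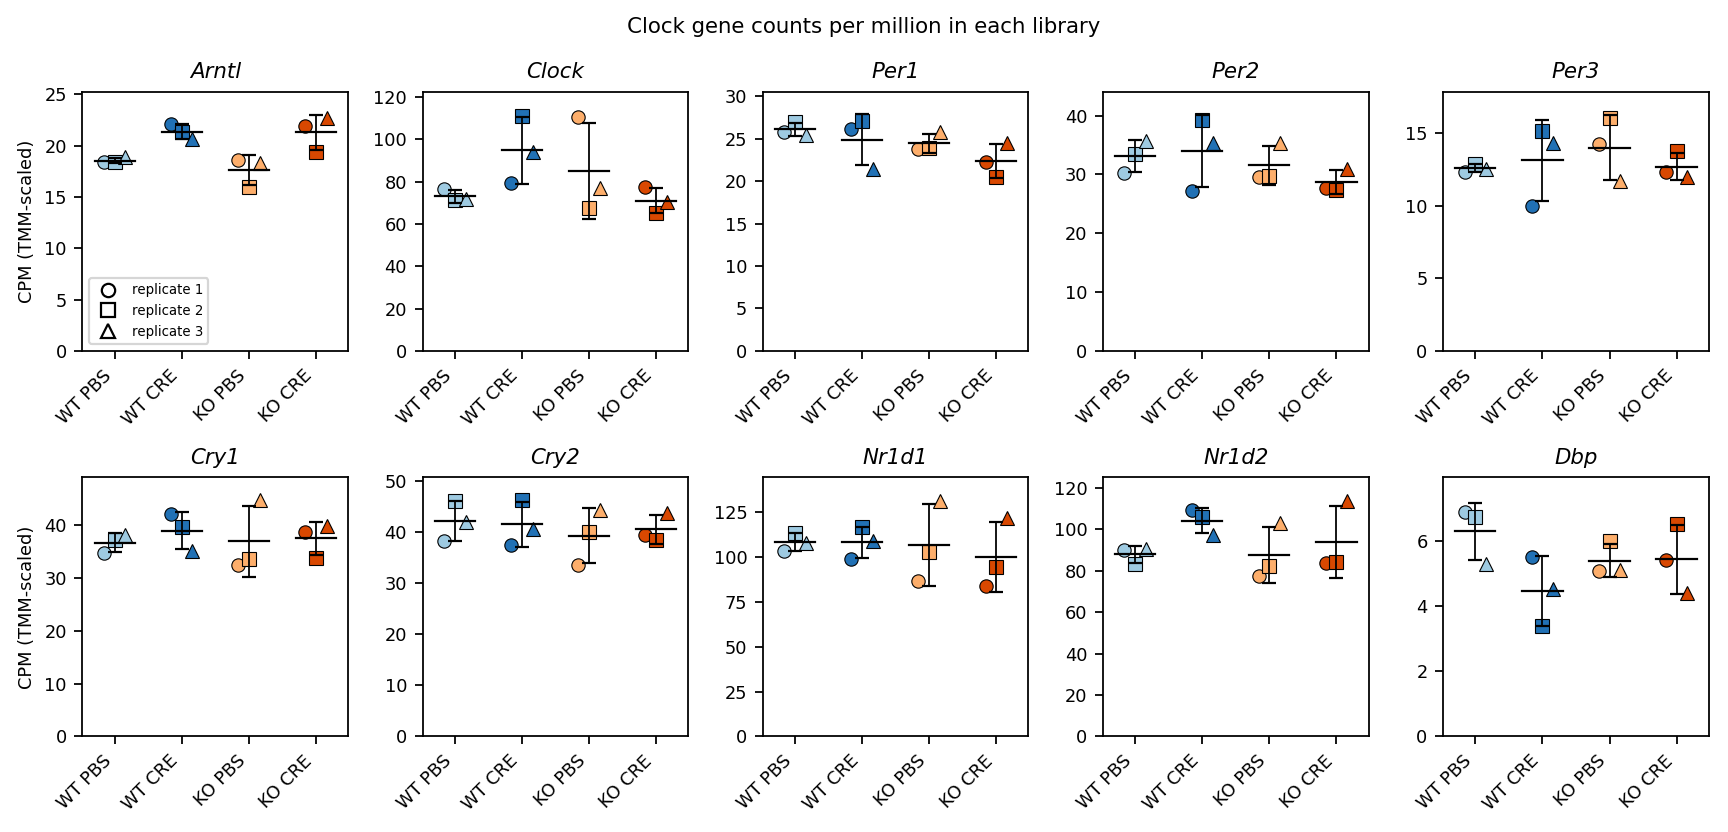
CPM of each clock gene in every library (circle, square and triangle for replicates 1, 2 and 3), with the group mean and SD (n = 3); the axes start at 0. The CRE libraries of *Arntl* lie above all its PBS libraries, *Clock* has single high libraries at 111 CPM (WT with CRE) and 110.4 CPM (KO with PBS), and *Nr1d1* and *Nr1d2* spread by replicate number in KO cells.

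The first question was whether CRE changed the clock genes in WT cells. The libraries of the 2 treatments separated for 3 of the 10 members, *Arntl*, *Clock* and *Nr1d2*, which were all higher with CRE, while groups that do not overlap were found for 16.5% of all genes tested. By the quasi-likelihood test of edgeR, with p adjusted after Benjamini and Hochberg, 0 of the 10 were called at 0.05, and 0.233% of all genes were. DESeq2 and limma-trend also called 0. At an unadjusted p below 0.05 edgeR gave 2 members, *Clock* and *Dbp*, against 9.36% of all genes. The median log2 ratio of the members was 0.05, beside -0.00 for all genes tested. When same-numbered CRE and PBS libraries were paired within a genotype, edgeR called 3.63% of all genes and still 0 members, the nearest being *Nr1d2* with an adjusted p of 0.0739. The pairing was adopted because these same libraries deviate together, and no label says what a replicate number stands for.

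Among the activators, *Arntl* was at 18.4, 18.4 and 18.9 CPM in the WT PBS libraries and at 22.1, 21.3 and 20.7 CPM with CRE. Every CRE library was above every PBS library, but the step between the groups was small. The log2 ratio was 0.20 (SE 0.09, 95% interval -0.00 to 0.41, edgeR adjusted p = 0.543). *Clock* was at 76.4, 71.1 and 71.6 CPM with PBS and at 79.5, 111 and 94.1 CPM with CRE. The groups did not overlap, but the first CRE library was close to the PBS libraries and the second stood far above. Its log2 ratio was 0.38 (SE 0.17, 95% interval 0.00 to 0.75, edgeR adjusted p = 0.531), and it was 0.25 without WT CRE replicate 2.

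The Per and Cry genes, the repressor arm, gave no separation. *Per1* was at 25.8, 27.0 and 25.4 CPM with PBS and at 26.1, 27.1 and 21.4 CPM with CRE, and its log2 ratio was -0.07 (95% interval -0.30 to 0.16). For *Per2* the log2 ratio was 0.04 (-0.26 to 0.33), for *Per3* 0.06 (-0.31 to 0.44), for *Cry1* 0.09 (-0.19 to 0.36) and for *Cry2* -0.02 (-0.29 to 0.24). The means of the 3 libraries were 33.1 ± 2.73 and 34.0 ± 6.18 CPM for *Per2*, 36.6 ± 1.81 and 38.9 ± 3.46 CPM for *Cry1* and 42.1 ± 3.88 and 41.5 ± 4.46 CPM for *Cry2* (SD, n = 3, PBS then CRE). These intervals leave room for changes of up to about the bounds given. How small a change 3 libraries a group could detect was not tested.

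In the REV-ERB loop, *Nr1d2* was at 90.1, 83.2 and 90.7 CPM with PBS and at 109, 105.9 and 97.5 CPM with CRE. All CRE libraries were higher, with a log2 ratio of 0.24 (SE 0.13, 95% interval -0.05 to 0.54, edgeR adjusted p = 0.622). Its sister *Nr1d1* was at 103, 113 and 107 CPM with PBS and at 98.9, 116 and 109 CPM with CRE. The order of the replicates was the same under both treatments and the log2 ratio was -0.00 (95% interval -0.35 to 0.35).

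*Dbp*, the output factor, was at 6.88, 6.72 and 5.29 CPM with PBS and at 5.51, 3.38 and 4.52 CPM with CRE. The groups overlapped by a single CRE library. Its log2 ratio was -0.49 (SE 0.22, 95% interval -0.98 to -0.00, edgeR adjusted p = 0.529). It was the only member to meet the rule used by the study, an unadjusted limma-trend p below 0.05 with an absolute log2 fold change above 0.5 (limma log2 fold change -0.51, unadjusted p = 0.0364), which 4.11% of all genes met. The unadjusted limma-trend p was 0.102 without WT PBS replicate 1, 0.0955 without WT PBS replicate 2, 0.159 without WT CRE replicate 2 and 0.0602 without WT CRE replicate 3, so that the rule was no longer met in these cases.

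The same question was asked in KO cells. Of the members, 1 of 10, *Arntl*, had groups that did not overlap, against 11.8% of all genes. By edgeR 0 members were called after adjustment, with 0.262% of all genes called, and DESeq2 and limma-trend also called 0. The unadjusted p was below 0.05 for 1 member, again *Arntl*, and for 6.48% of all genes. The study's rule was met by 0 members and by 3.38% of all genes, and in the paired fit edgeR called 0 members and 2.13% of all genes.

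*Arntl* was at 18.6, 15.98 and 18.3 CPM in the KO PBS libraries and at 21.9, 19.4 and 22.7 CPM with CRE. Each CRE library was above all PBS libraries, as in WT cells. The log2 ratio was 0.27 (SE 0.09, 95% interval 0.06 to 0.48, edgeR adjusted p = 0.597). *Clock* was at 110.4, 67.6 and 77.0 CPM with PBS and at 77.3, 65.3 and 70.3 CPM with CRE, so it was lower with CRE in all 3 same-numbered pairs although the groups overlapped. Its log2 ratio was -0.26 (SE 0.17, 95% interval -0.64 to 0.12), and without KO PBS replicate 1 it was -0.03.

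For *Dbp* the KO libraries gave 5.09, 5.98 and 5.10 CPM with PBS and 5.42, 6.50 and 4.39 CPM with CRE. They interleaved, with a log2 ratio of 0.01 (95% interval -0.48 to 0.50). *Per1* (-0.13), *Per2* (-0.14) and *Per3* (-0.14) had negative log2 ratios and *Cry1* (0.02) and *Cry2* (0.04) were near 0, each with an interval that spans 0. *Nr1d1* had a log2 ratio of -0.10 (95% interval -0.45 to 0.26) and *Nr1d2* of 0.10 (-0.19 to 0.39).

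**Figure D3:**
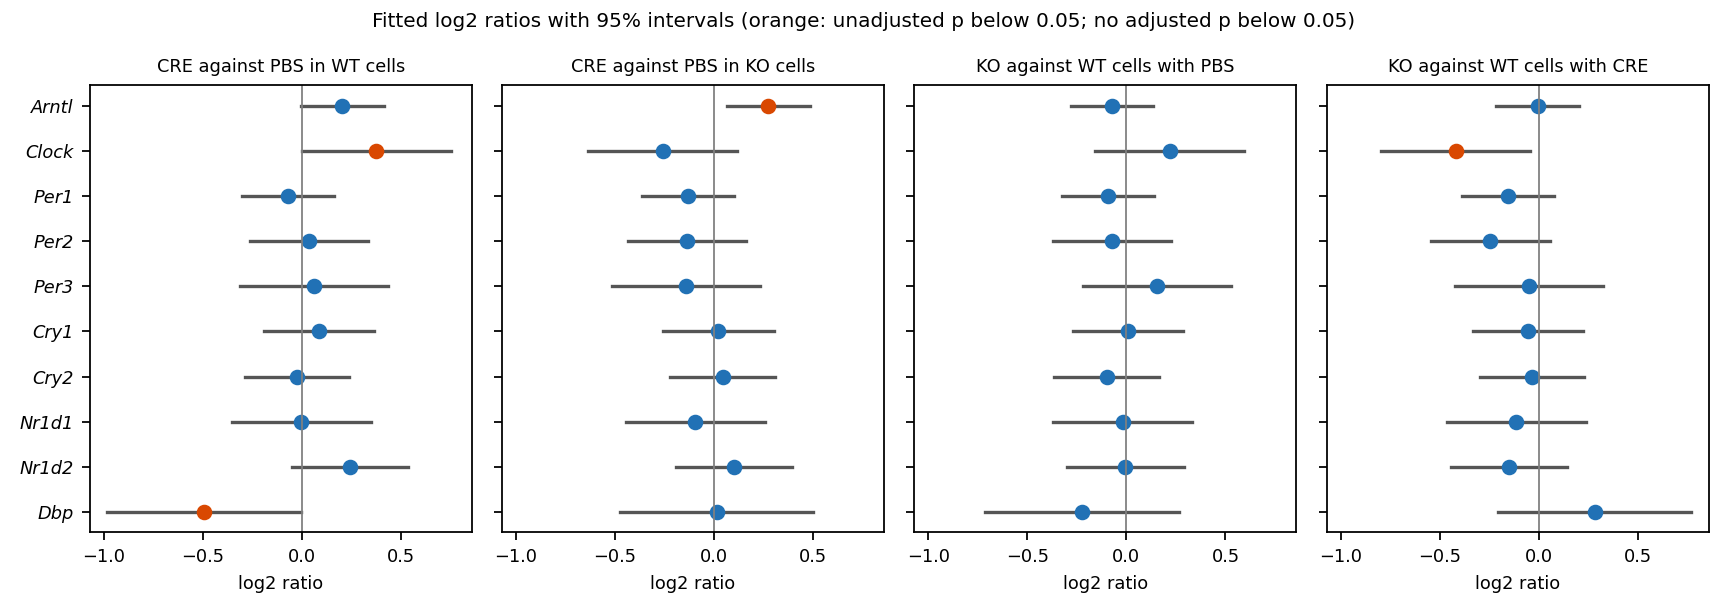
Fitted log2 ratio of each clock gene (point) with its 95% interval (line) from edgeR in the 4 comparisons of groups; orange marks an unadjusted p below 0.05. *Clock* and *Dbp* in WT cells, *Arntl* in KO cells and *Clock* between genotypes with CRE are orange, and no adjusted p was below 0.05.

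Averaged over both genotypes, *Arntl* was the member that set the treatments apart. All 6 CRE libraries (19.4 to 22.7 CPM) were above all 6 PBS libraries (15.98 to 18.9 CPM), which held for 1 of the 10 members and for 1.09% of all genes with CRE as the higher side. The log2 ratio was 0.24 (SE 0.07, 95% interval 0.09 to 0.39), a fold of 1.18. By edgeR's quasi-likelihood test the unadjusted p was 0.00464 and the adjusted p 0.158, so that 0 members were called, against 1.10% of all genes. The unadjusted p was below 0.05 for 1 member, *Arntl*, and for 11.1% of all genes. limma-trend called 0 members. DESeq2, which called 743 of the 20612 genes here against 226 by edgeR, called 1 member, *Arntl*, with an adjusted p of 0.0224.

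With the libraries of the same number paired within each genotype, *Arntl* was called by edgeR, with a log2 ratio of 0.24 (SE 0.05) and an adjusted p of 0.0307. It was 1 of 10 members, and 6.59% of all genes were called in that paired fit. Without any 1 of the 6 pairs the log2 ratio stayed between 0.22 and 0.26 and the adjusted p of the paired edgeR fit was between 0.078 and 0.12, above the threshold of 0.05 in each. CRE was higher than PBS in all 6 pairs for 2 of 10 members, *Arntl* (differences of 0.13 to 0.31 log2 CPM) and *Nr1d2* (0.04 to 0.35), and for 7.61% of all genes tested. In the paired fit *Nr1d2* had a log2 ratio of 0.17 (SE 0.04) and an adjusted p of 0.0584 by edgeR. The difference of the 2 genotypes' responses was 0.07 for *Arntl* (95% interval -0.23 to 0.36) by the unpaired fit.

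**Figure D4:**
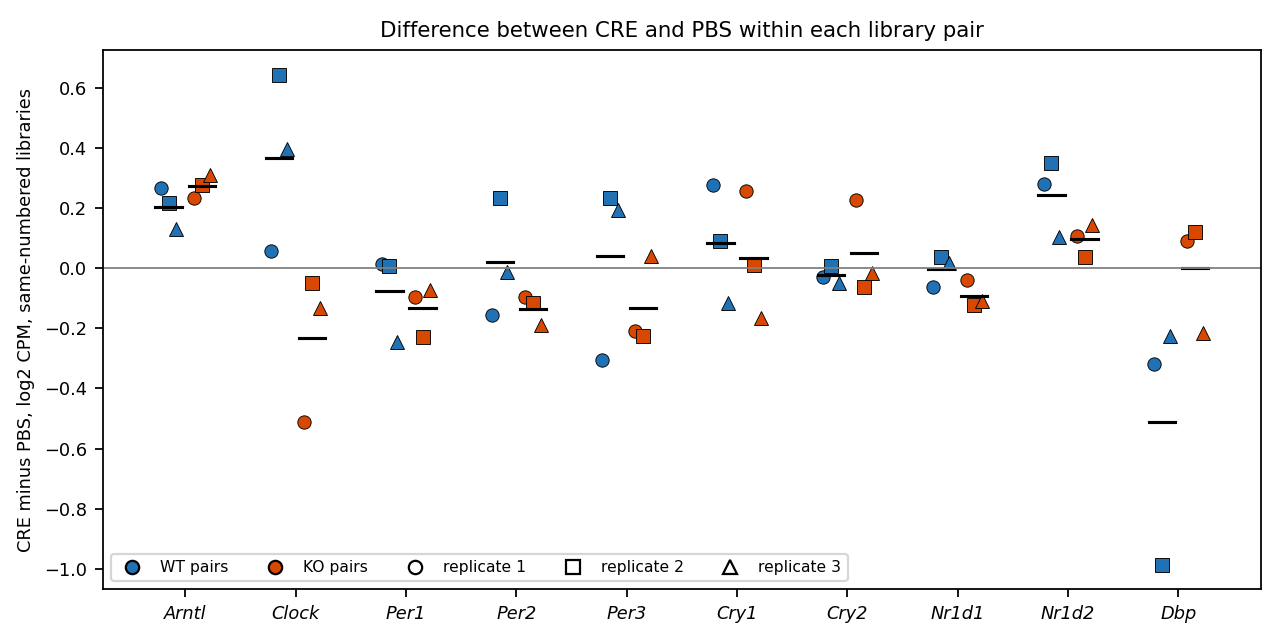
Difference in log2 CPM between the CRE and the PBS library of the same number, for WT pairs (blue) and KO pairs (orange), with a bar at the mean of 3. *Arntl* and *Nr1d2* lie above 0 in all 6 pairs, *Clock* lies above 0 in the 3 WT pairs and below 0 in the 3 KO pairs, and *Dbp* has a single WT pair at -0.99.

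Markers of several cell types moved with the treatment beside *Arntl*, those of AT1 cells among them. The summed level of the 5 AT1 markers was 884.8 to 1065 CPM in WT cells with PBS and 540.1 to 658.9 CPM with CRE, and in KO cells 824.5 to 1236 CPM and 569.6 to 849.6 CPM. In the paired edgeR fit averaged over genotypes 3 of these 5 markers (*Ager*, *Aqp5* and *Rtkn2*) were called lower, and none was at 0. In the same fit 2 of the 9 AT2 markers were called higher (*Sftpd* and *Lamp3*) and 3 lower (*Sftpc*, *Abca3* and *Lpcat1*). Of the other lists, 2 of 4 fibroblast markers (*Col1a1* and *Col1a2*), 1 of 3 club cell markers (*Scgb1a1*) and 1 of 6 leukocyte markers (*Mrc1*) were called lower, and 0 of the ciliated and endothelial markers were called. The fit called 6.59% of all genes. The fibroblast sum was 62.2 to 164 CPM with PBS and 58.6 to 150.0 CPM with CRE in WT cells, and 64.5 to 208 CPM and 67.5 to 186 CPM in KO cells. Within groups, over the 12 libraries and with group means subtracted, *Arntl* had a Pearson r of -0.82 with the AT1 sum, -0.64 with the fibroblast sum and between 0.005 and 0.41 with the other 5 sums, a description over libraries of which the same-numbered ones deviate together. In bulk samples fewer cells of a type and less RNA per cell cannot be told apart, and the part of cell makeup in the *Arntl* result was not tested.

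*Clock* had opposite directions in the genotypes, higher with CRE in all 3 WT pairs (0.06, 0.64 and 0.39 log2 CPM) and lower in all 3 KO pairs (-0.51, -0.05 and -0.13). The difference of the responses was -0.64 log2 units (SE 0.24, 95% interval -1.17 to -0.11). Its unadjusted p was 0.0231 and its adjusted p was 1 by edgeR's quasi-likelihood test over all genes. In that test 0 members and 0% of all genes were called, 1 member, *Clock*, had an unadjusted p below 0.05, and so did 3.70% of all genes. DESeq2 and limma-trend called 0 members. The difference was -0.41 without KO PBS replicate 1 and -0.51 without WT CRE replicate 2, the libraries with the highest values. For *Dbp* the difference was 0.51 (95% interval -0.18 to 1.20, unadjusted p = 0.134 by edgeR), so the lower values with CRE in WT cells were not shown to differ from the values of KO cells.

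The second question was whether the loss of AhR activity in KO cells went with another level of the clock genes. With PBS 0 of the 10 members had groups that did not overlap, against 14.0% of all genes. Called members were 0 by edgeR, where 0.150% of all genes were called, and 0 by DESeq2 and limma-trend. The unadjusted p was below 0.05 for 0 members and for 8.37% of all genes, and the study's rule was met by 0 members and 4.10% of all genes. The 10 log2 ratios of KO to WT lay between -0.22 (*Dbp*) and 0.22 (*Clock*), and the ratio of *Clock* was -0.01 without KO PBS replicate 1. For *Arntl* the ratio was -0.07 (95% interval -0.28 to 0.14), for *Nr1d1* -0.02 (-0.37 to 0.33) and for *Nr1d2* -0.01 (-0.30 to 0.29).

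With CRE 1 of the 10 members, *Clock*, had groups that did not overlap, against 11.0% of all genes. It was at 79.5, 111 and 94.1 CPM in WT cells and 77.3, 65.3 and 70.3 CPM in KO cells, with a log2 ratio of -0.42 (SE 0.17, 95% interval -0.79 to -0.04, edgeR adjusted p = 0.799). This comparison and the response of WT cells share the WT CRE libraries. By edgeR 0 members and 0.170% of all genes were called after adjustment, and DESeq2 and limma-trend also called 0 members. The unadjusted p was below 0.05 for 1 member, *Clock*, and 5.95% of all genes, and the study's rule was met by 0 members and 3.42% of all genes. Without WT CRE replicate 1 it was met by 1 member, *Clock*. The other ratios lay between -0.24 (*Per2*) and 0.28 (*Dbp*), and that of *Arntl* was -0.00 (95% interval -0.21 to 0.20). Averaged over treatments, 0 members were called by edgeR, DESeq2 and limma-trend, against 0.631% of all genes by edgeR, and 0 members had an unadjusted p below 0.05, against 9.93%. The largest averaged ratio was -0.16 (*Per2*, 95% interval -0.37 to 0.05). This average counts the PBS and CRE libraries of a genotype as separate, although those of the same number deviate together. Its intervals are therefore likely too narrow.

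The AhR target genes of the same libraries give the scale of the genotype difference. All 5 listed targets were called in the averaged edgeR test: *Cyp1b1* had a log2 ratio of -3.14 (SE 0.19), *Ahrr* -1.94, *Cyp1a1* -1.52, *Nqo1* -1.36 and *Tiparp* -1.08. *Cyp1b1*, *Nqo1* and *Tiparp* stayed called when any 1 of the 12 libraries was left out. *Cyp1a1* (adjusted p = 0.0324) lost its edgeR call in 10 of 12 such fits, all but those without KO PBS replicate 1 or KO CRE replicate 1, with adjusted p of 0.0555 to 0.103. *Ahrr* (adjusted p = 0.0246) lost it in 9, all but these and the one without WT PBS replicate 3, with adjusted p of 0.0507 to 0.0867. The clock member with the widest interval in that test, *Dbp*, had a ratio of 0.03 with an interval of -0.32 to 0.37. The averaged test treats same-numbered PBS and CRE libraries as separate although they deviate together. The SE, calls and intervals of the targets and of *Dbp* are thus likely too favourable.

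Replicates of the same number differed from other numbers in a way shared by both treatments, and this was tested with a 4 degree of freedom quasi-likelihood test of the pairs within genotypes. The test was reported only on condition that deviations of same-numbered CRE and PBS libraries correlated above 0.1, which was checked in these same data. Its count of called genes is therefore no separate evidence that the numbers matter. Of the 10 members 2 were called by edgeR, *Nr1d1* (F = 33.2, adjusted p = 0.00388) and *Nr1d2* (F = 11.8, adjusted p = 0.0327), against 13.0% of all genes. With 10 members a count of 2 does not set them apart from that share. *Nr1d1* was at 86.3, 103 and 131 CPM in KO cells with PBS and at 83.9, 94.2 and 121 CPM with CRE, for replicates 1, 2 and 3. *Nr1d2* was at 77.7, 82.2 and 103 CPM and at 83.6, 84.3 and 114 CPM. In both genes replicate 1 was lowest and replicate 3 highest under both treatments, while in WT cells the span was narrower. *Nr1d1* remained called without any 1 library, with adjusted p of 0.0109 to 0.0409. *Nr1d2* was not called by edgeR without WT PBS replicate 1 (adjusted p = 0.0729), WT CRE replicate 1 (0.0749), or the KO PBS replicates 1, 2 and 3 (0.101, 0.071 and 0.147) and the KO CRE replicates 1, 2 and 3 (0.0992, 0.0846 and 0.219), each left out in turn.

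The summed level of the AT2 markers put the KO libraries in the same order as the REV-ERB genes did. *Sftpc*, which encodes a surfactant protein and is the gene whose promoter drives Cre, was at 3085, 4590 and 6181 CPM in KO cells with PBS and at 3215, 4630 and 6491 CPM with CRE. The summed level of the 9 AT2 markers had a Pearson r of 0.93 with *Nr1d1*, 0.86 with *Nr1d2* and 0.67 with *Cry2*, over 12 libraries with group means subtracted. These were its highest, and r with the remaining members ran from -0.49 (*Clock*) to 0.58 (*Cry1*). The same level ran from 4474 to 8707 CPM in KO cells with PBS and from 4667 to 9087 CPM with CRE, against 7616 to 8586 CPM and 6680 to 7352 CPM in WT cells, and none of the 9 markers was at 0. Most of this sum is *Sftpc*, and not every marker followed it. In KO cells with CRE *Lpcat1* spanned only 63.98 to 66.5 CPM and *Abca3* 132.2 to 142.8 CPM. In WT cells with PBS the sum was lowest in replicate 3, at 7616 CPM, where *Nr1d2* was highest, at 90.71 CPM. Endothelial markers, at 31.5 to 71.6 CPM in sum, had r of -0.79 with *Nr1d1*, -0.91 with *Cry2* and -0.83 with *Per2*. With the remaining members it ran from -0.42 (*Cry1*) to 0.55 (*Dbp*). *Nr1d1* also had r of -0.55 with the club cell sum, -0.56 with the ciliated sum and -0.51 with the leukocyte sum. It was -0.47 with the fibroblast sum and 0.30 with the AT1 sum. Same-numbered libraries deviate together, these values are a description, and the part of cell makeup in the *Nr1d1* and *Nr1d2* values was not tested.

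**Figure D5:**
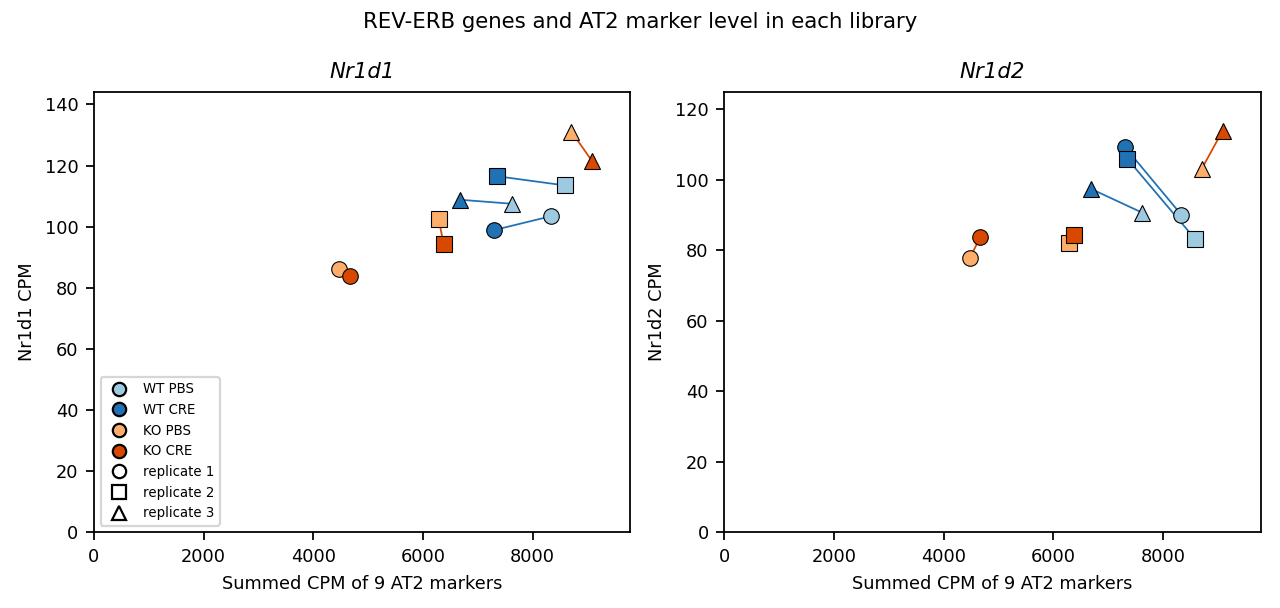
CPM of *Nr1d1* and of *Nr1d2* against the summed CPM of 9 AT2 markers in each library, with lines joining the PBS and CRE libraries of the same number; the axes start at 0. In KO cells both REV-ERB genes and the AT2 sum (4474 to 9087 CPM) are lowest in replicate 1 and highest in replicate 3.

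Among themselves several members varied together between libraries. With group means subtracted, over 12 libraries, Pearson r was 0.84 for *Nr1d1* and *Cry2*, 0.81 for *Nr1d1* and *Nr1d2*, 0.78 for *Per2* and *Cry2* and 0.75 for *Cry1* and *Nr1d2*. *Dbp* ran the other way from *Per2* (r = -0.82), and *Per3* from *Cry1* (r = -0.70). These are the extremes of 45 pairs of genes and are given as a description, since same-numbered libraries deviate together and all share a normalization. Over all genes with a mean of at least 1 CPM, the 5 nearest to *Arntl* were *Gm22579*, *Tgif2*, *Igkv10-94*, *Atp11b* and *Maff* (r of 0.93 to 0.97), and the 5 nearest to *Dbp* were *Exosc1*, *Piezo2*, *Hax1*, *Prdx5* and *Zfp930* (0.90 to 0.94). At the opposite end stood *Fmc1*, *Pcyox1*, *Upk1b*, *Sdc2* and *Cryz* for *Arntl* (-0.97 to -0.95) and *Ttc6*, *Kif1b*, *D5Ertd579e*, *Micu2* and *Cdcp1* for *Dbp* (-0.96 to -0.94). No clock gene was among these 20, and none of the 20 remained when group means were not subtracted.

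The rest of the clock machinery was tested from fixed lists. Of 11 other transcriptional clock genes, all tested, 0 were called by edgeR or limma-trend in any comparison of groups. DESeq2 called 1, *Bhlhe40*, between genotypes averaged over treatments, where it called 522 of all genes. With CRE in WT cells 2 of them had an unadjusted p below 0.05, both lower: *Ciart*, a repressor of the CLOCK and ARNTL pair, with a log2 ratio of -0.60 (SE 0.23, edgeR adjusted p = 0.446), and *Bhlhe40*, which competes for E-boxes, with -0.26 (SE 0.11, adjusted p = 0.497). *Ciart* was at 6.85, 8.10 and 7.23 CPM with PBS and 4.89, 5.48 and 4.29 CPM with CRE in WT cells, without overlap. In the paired fit *Bhlhe40* was called lower in WT cells, at -0.25 (SE 0.04, adjusted p = 0.0267), and averaged over genotypes, at -0.19 (SE 0.03, adjusted p = 0.0109). Of all genes 3.63% and 6.59% were called there. Between genotypes *Bhlhe40* had a log2 ratio of 0.29 averaged over treatments (adjusted p = 0.185 by edgeR). *Npas2*, the relative of CLOCK, at 1.95 to 4.80 CPM, and *Arntl2*, the relative of ARNTL, at 2.16 to 3.23 CPM, were detected in every library.

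Of 13 modifiers of clock proteins 0 were called by edgeR, DESeq2 or limma-trend in any comparison of groups, and at most 2 had an unadjusted edgeR p below 0.05 in any one. *Usp2*, a deubiquitinase, had a log2 ratio of -0.45 with CRE in WT cells (SE 0.17, edgeR adjusted p = 0.43), its 3 CRE libraries (7.53 to 8.99 CPM) lying below the PBS libraries (9.04 to 14.6 CPM). Single libraries of *Gsk3b* and *Cipc* stood apart from their groups: *Gsk3b* was at 132 CPM in WT PBS replicate 3 against 55.7 and 65.7 CPM in the others, and *Cipc* at 31.3 CPM in WT CRE replicate 2 against 71.9 and 89.2 CPM. This recurred in other groups. *Gsk3b* reached 146.3 CPM in WT cells with CRE (median 59.05), and 136.8 CPM with PBS (55.25) and 122 CPM with CRE (52.03) in KO cells. The lowest *Cipc* library of KO cells was at 26.06 CPM with PBS (median 71.51) and at 25.97 CPM with CRE (64.04). *Gsk3b* encodes a kinase and *Cipc* an inhibitor of CLOCK.

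Of 7 clock outputs 1 was called by edgeR averaged over genotypes, against 1.10% of all genes. *Nampt*, the NAD-making enzyme whose gene is an E-box target, was at 119, 104 and 102 CPM with PBS and 169, 140 and 128 CPM with CRE in WT cells, and at 96.6, 84.2 and 103 CPM and 128, 115 and 143 CPM in KO cells. *Nampt* was higher with CRE in every same-numbered pair, which held for 7.61% of all genes tested. Its averaged log2 ratio was 0.44 (SE 0.09, edgeR adjusted p = 0.0436), and in the paired fit 0.43 (SE 0.03, adjusted p = 0.000798). It was not called by edgeR without WT PBS replicate 2 or 3 (adjusted p = 0.129 and 0.12), WT CRE replicate 1 or 2 (0.078 and 0.0959), the KO PBS replicates 1, 2 and 3 (0.0804, 0.109 and 0.0551) or KO CRE replicates 1 and 3 (0.0905 and 0.115), each left out in turn. With all libraries the unpaired edgeR call was also lost with size factors in the style of DESeq2 (adjusted p = 0.052), with library size alone (0.0556) and without the filter on low counts (0.0566). In the paired fit averaged over genotypes *Cdkn1a*, a cell cycle inhibitor, was called higher (0.19, adjusted p = 0.00539 by edgeR) and *Wee1*, a kinase of the G2 checkpoint, lower (-0.18, adjusted p = 0.0198). That paired fit called 6.59% of all genes. *Tef*, *Hlf* and *Usp2* stand in 2 of these lists each.

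Genes known to be induced by cues that reset clocks were looked at as lists. Whether a change in such a gene came from its cue was not tested. Of 6 genes induced by glucocorticoids and 6 induced by cAMP or serum, 0 were called by edgeR or limma-trend in the unpaired comparisons, where at most 2 of a list had an unadjusted edgeR p below 0.05. DESeq2 called 1, *Nr4a1*, with CRE in WT cells and averaged over genotypes, where it called 414 and 743 of all genes. In the paired fit averaged over genotypes 1 of each was called: *Dusp1*, a phosphatase, was higher with CRE (log2 ratio 0.29, adjusted p = 0.0126 by edgeR) and *Nr4a1*, an orphan nuclear receptor, was lower (-0.38, adjusted p = 0.00302). This fit called 6.59% of all genes. The other 5 of each list, *Fkbp5*, *Tsc22d3* and *Fos* among them, were not called. Of 15 other PAS genes 14 were tested. *Ahrr*, the AhR repressor and itself an AhR target, was called lower in KO cells when averaged over treatments, a call lost in 9 of 12 fits with 1 library left out, as given above, and *Hif1a*, the hypoxia factor, was called higher with CRE in the paired fit averaged over genotypes (0.12, adjusted p = 0.0402 by edgeR). The partner *Arnt* was at 28.9 to 39.2 CPM in all libraries.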

How the data were processed

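RNA-seq of AT2 cells in 4 groups of 3 libraries was analysed. The authors made stranded mRNA libraries, aligned reads with STAR 2.7.2b to GRCm38 and counted with Salmon; the deposited count is a whole number per gene, not normalized, and how it was rounded was not given in the sources used here. The deposited FPKM was made by the authors. The paper names RefSeq, whereas all 55450 gene IDs match GENCODE M21, from which positions were taken. Counts were filtered with filterByExpr (minimum count 10), normalized with TMM (factors 0.969 to 1.03) and tested in 1 fit of 4 group means with the quasi-likelihood test of edgeR 4.0.16 under R 4.3.3, with Benjamini-Hochberg adjustment over 20612 genes at 0.05. The log2 values for limma-trend (limma 3.58.1), computed from the deposited counts, used a prior count of 2. DESeq2 1.42.0 and the other settings of the closing section were alternatives. The script was tested on simulated data.

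The members, gene lists and tests were chosen with earlier results of these data known. Named genes are the members, those of the fixed lists whose calls or unadjusted p are described, and the 5 highest and 5 lowest correlations with *Arntl* and with *Dbp*; *Gsk3b* and *Cipc* were named after their values were seen. Same-numbered CRE and PBS libraries deviated together over 14542 genes (r of 0.418 to 0.729 in WT cells and 0.325 to 0.589 in KO cells), so they were treated as pairs for the CRE responses. Between genotypes same-numbered libraries reached only -0.0286 to 0.42, and no pairing was used.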

Additional observations from a re-analysis of the deposited data

How the results depend on the processing

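Of the 10 members, 0 were called in each comparison of groups under every alternative except 2, both for the CRE response averaged over genotypes: DESeq2 and the replicate block within genotype each called 1, *Arntl*. The cause was not tested, although the paired fit removes the differences between pairs by construction. The block on the replicate number as an additive term called 0 members. Over the alternatives with all libraries the averaged log2 ratio of *Arntl* was 0.229 to 0.239 and its adjusted p 0.0224 to 0.272. In the test of library pairs, leaving out 1 library gave 1 to 2 called members. The order of the 10 levels was the same with FPKM divided by the TMM factor, and 0 of the 20 genes nearest to or farthest from *Dbp* and *Arntl* were shared when group means were not subtracted. Leaving out libraries from the test of pairs and from the study's rule, and pairs from the paired fit, were alternatives chosen after seeing the data. The count of all genes called moved by over 1.5 times with DESeq2, for CRE from 48 to 414 in WT cells, from 54 to 255 in KO cells and from 226 to 743 averaged, between genotypes from 31 to 234 with PBS, from 35 to 171 with CRE and from 130 to 522 averaged, and from 0 to 23 for the difference of responses. The replicate block within genotype gave 748, 439 and 1358 for the CRE comparisons, and as an additive term it gave 71, 55 and 223 between genotypes, where the numbers are only shared labels. With only the libraries compared, 13 genes were called for CRE in KO cells and 15 between genotypes with PBS. Leaving out 1 library lowered the counts to as few as 19 for CRE in WT cells, 23 in KO cells and 125 averaged, and to 15, 21 and 78 between genotypes.

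Direction turned for member ratios of at most 0.10 in size, and for *Clock* between genotypes with PBS (0.22), none of them called. With all libraries these were *Dbp* in KO cells (-0.0013 by limma-trend, -0.00917 by library size alone, -0.000559 with the replicate block within genotype), *Nr1d1* in WT cells (0.00365 by library size alone, 0.00442 with only the libraries compared) and, between genotypes with PBS, *Cry1* (-0.00555 by limma-trend), *Nr1d1* (0.0104) and *Nr1d2* (0.024 by library size alone). With 1 library left out, CRE ratios in WT cells ranged from -0.134 to 0.0284 for *Per1*, -0.0828 to 0.173 for *Per2*, -0.0509 to 0.229 for *Per3*, -0.109 to 0.0465 for *Cry2* and -0.0584 to 0.0592 for *Nr1d1*. In KO cells they ranged from -0.0635 to 0.183 for *Cry1*, -0.0584 to 0.137 for *Cry2*, -0.26 to 0.0796 for *Nr1d1*, -0.0622 to 0.232 for *Nr1d2* and -0.136 to 0.145 for *Dbp*. Between genotypes with PBS they ranged from -0.0139 to 0.359 for *Clock*, -0.152 to 0.0947 for *Cry1*, -0.194 to 0.0018 for *Cry2*, -0.194 to 0.113 for *Nr1d1* and -0.138 to 0.0748 for *Nr1d2*, and with CRE from -0.0504 to 0.0728 for *Arntl*, -0.215 to 0.0648 for *Per3*, -0.123 to 0.0246 for *Cry1* and -0.102 to 0.0524 for *Cry2*. With 3 libraries a group, changes inside the intervals given for each gene were not excluded, and *Dbp*, at 252 to 516 counts, was the least precise.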
